A study of Mus musculus with 32 samples.

Results

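The cells described here are the cardiomyocytes, the beating muscle cells, of hearts from C57BL/6J mouse embryos at embryonic days E9.5, E10.5 and E11.5. They were chosen among heart cells that the study assigned to MC, its mesoderm-derived major group, as the cells whose mean of log2(TPM/10 + 1) over *Tnnt2*, *Actc1*, *Tnnc1* and *Myl4* was at least 4.5. TPM here is the number of unique molecular identifiers (UMIs, tags that each mark 1 captured molecule) counted for a gene, scaled to a cell total of 1000000. The rule found 158 cells among 236 distinct heart MC cells, out of 288 heart cells and 1916 cells in the whole series. The other 78 heart MC cells served as the comparison.

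Hearts came from 6 embryos without any genetic change or treatment, 2 at each stage, and the embryo was the replicate. The chosen cells numbered 27 and 33 in E9.5 embryos 1 and 2, 22 and 25 in E10.5 embryos 1 and 2, and 26 and 25 in E11.5 embryos 1 and 2. E9.5 embryo 2 is labelled female and the others male. The 2 E9.5 hearts are separate samples labelled HiSeq 2500, and the hearts of each later stage form 1 sample labelled HiSeq 4000, so stage and sequencer cannot be told apart except between E10.5 and E11.5. The chosen cells held 21397 to 1797374 UMIs with a median of 255474, and the medians of the embryos in the same order were 310442, 781778, 93592, 408806, 121251 and 109899 UMIs.

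Cardiomyocytes contract through sarcomeres, in which thick filaments of myosin slide along thin filaments of actin that carry the troponins and tropomyosin. Calcium enters the cell and leaves the sarcoplasmic reticulum to start each beat, and is then pumped back by SERCA2 under the brake of phospholamban. At these stages the looped heart tube forms chambers, and atrial and ventricular muscle come to differ in their myosin light and heavy chains. The factors NKX2-5, GATA4, TBX5 and MEF2C are known to direct cardiac genes, and SRF and MEF2 proteins bind A/T-rich sites in the promoters of many muscle genes.

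The label was checked against genes that the rule did not use, and the chosen cells were not of one kind. Of the 158 cells, 124 had a rule score of at least 8 and 34 had a score between 4.5 and 8. The 3 cells just inside the threshold had scores of 4.551, 4.551 and 4.567, and the 3 just outside had 4.454, 4.399 and 4.396. In the 124 high-scoring cells the median level was 6.27 for *Ttn*, the giant spring of the sarcomere, 4.72 for *Nkx2-5* and 5.13 for *Actn2*, the Z-disc actinin. In the 34 low-scoring cells these medians were 2.51, 1.36 and 1.08, and in the other MC cells 1.11, 0.32 and 0.53.

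The low-scoring cells held epicardial and mesenchymal transcripts. *Upk3b*, a marker of the mesothelial layer that covers the heart, had a median of 5.03 in them and 0 in the high-scoring cells. The medians of the epicardial factors *Wt1*, *Tbx18* and *Tcf21* were 3.69, 4.12 and 4.86 in low-scoring cells against 0.60, 0 and 0.36 in high-scoring cells. At least 1 of these 4 genes was expressed (a level of 1 or more) in 31 of 34 low-scoring cells, 72 of 124 high-scoring cells and 58 of 78 other MC cells. The cardiomyocyte label therefore goes against the marker levels of the low-scoring cells, and the main counts below are also given for the 124 cells with a score of at least 8, a limit chosen after seeing the data.

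In the 4 embryos with at least 3 low-scoring cells, the low-scoring cells lay closer to the other MC cells than to the high-scoring ones. Against the other MC cells 33 genes (0.265%) were higher and 2 (0.0161%) lower by at least 1 on the log2 scale with the same sign in each embryo, while high-scoring cells, set against low-scoring ones, had 238 genes (1.86%) higher and 998 (7.81%) lower. *Upk3b* was 2.51, 3.17, 5.70 and 3.75 in low-scoring cells of E9.5 embryo 2, both E10.5 embryos and E11.5 embryo 1, and 0.27, 1.11, 0.39 and 0.18 in high-scoring cells. *Nkx2-5* was 2.87, 1.04, 1.12 and 1.10 in the former and 5.11, 3.16, 4.69 and 4.49 in the latter. For both genes the embryo means of these groups did not overlap, while single cells did. Over all cells, *Upk3b* was expressed in 76.5% of low-scoring and 8.87% of high-scoring cells, and *Nkx2-5* in 52.9% and 93.5%. As the score separated the cells, these differences are a description without a test.

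**Figure D1:**
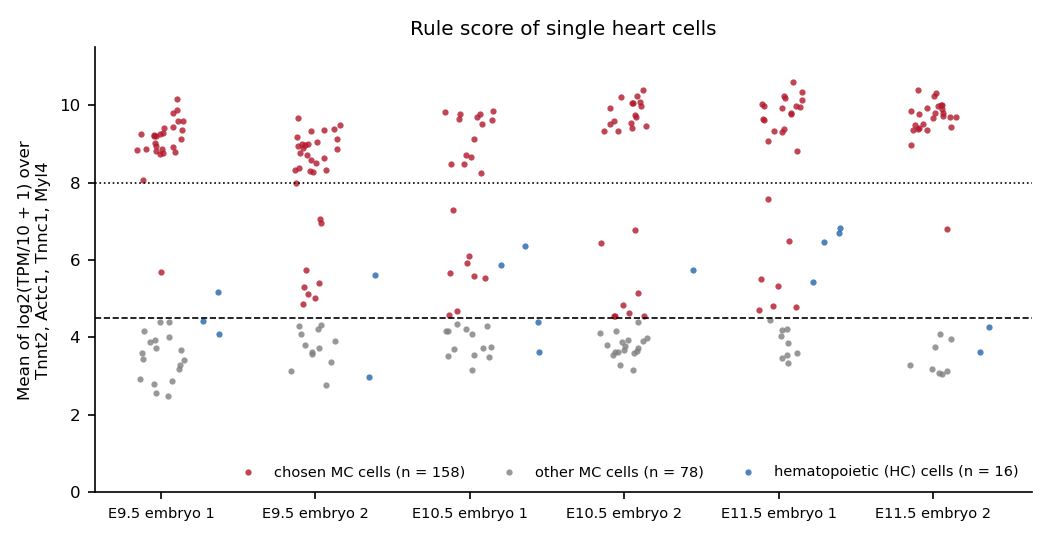
Rule score (mean of log2(TPM/10 + 1) over 4 genes) of each heart cell by embryo, with 158 chosen MC cells, 78 other MC cells and 16 hematopoietic (HC) cells as points; the dashed line marks 4.5 and the dotted line 8. High-scoring cells form a band above 8 in each of the 6 embryos, while the cells between 4.5 and 8 overlap the range of the hematopoietic cells, which reach 6.84.

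Transcripts of the rule genes were also found in cells that should lack them. The 16 hematopoietic cells of the heart scored 2.98 to 6.84 with a median of 5.31, and 9 of them reached 4.5 while 0 reached 8. Their median depth was 397121 UMIs, against 199465 in high-scoring cells, 380888 in low-scoring cells and 350528 in the other MC cells. *Myl3* and *Tnni3* were expressed in 100% of the hematopoietic cells, so a low level of these transcripts does not by itself mark a muscle cell here. Whether free RNA, doublets or expression gave these counts was not tested. No cell barcodes are given in the files, and barcodes shared between libraries were not counted.

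**Figure D2:**
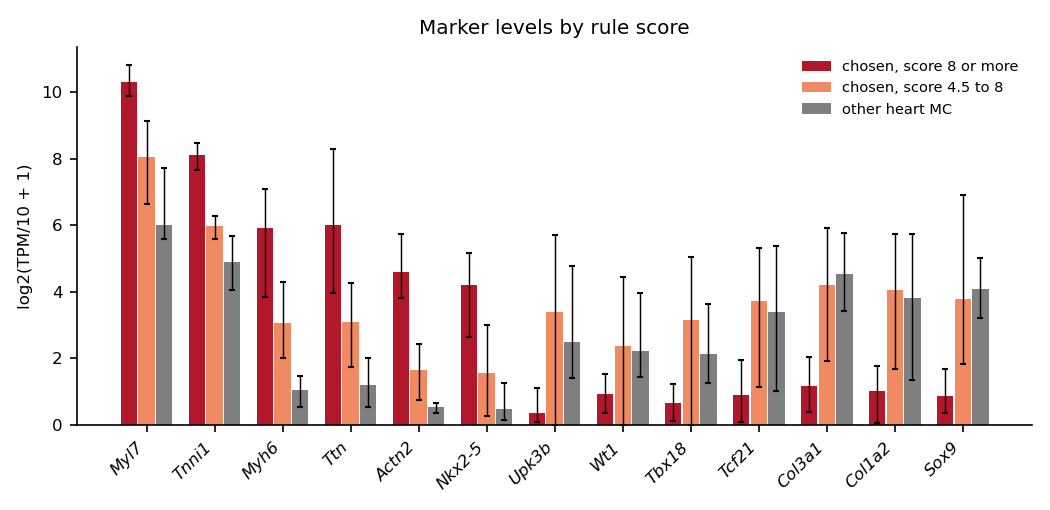
Mean level (log2(TPM/10 + 1)) of 13 genes in chosen cells with a score of at least 8, chosen cells with a score of 4.5 to 8 and the other heart MC cells. Bars are means of the 6 embryo means, of which 2 in the middle class (embryo 1 at E9.5, embryo 2 at E11.5) rest on 1 cell each, and error bars run from the lowest to the highest embryo; *Ttn*, *Actn2* and *Nkx2-5* fall and *Upk3b*, *Tbx18* and *Tcf21* rise from the first to the second class of cells.

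Short promoter sequences were looked up, because the genes that carry them recur in the results below. RefSeq (GRCm38.p6) gave a window of 250 bases upstream of the annotated start for 34 of 40 genes of the sarcomere lists and 18 of 20 genes of a list of endoplasmic reticulum (ER) folding genes. Both strands were searched, and capitals mark the match with 5 flanking bases on each side. The ER stress response element, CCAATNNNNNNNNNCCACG, begins with the letters of the CCAAT box and is known from promoters of ER chaperones. It was found upstream of 7 of the 18 ER folding genes:
Hspa5 (chr2:34772020-34772048, + strand): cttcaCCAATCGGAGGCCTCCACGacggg
Hsp90b1 (chr10:86705528-86705556, + strand): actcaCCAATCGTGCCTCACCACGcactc
Hsp90b1 (chr10:86705633-86705661, - strand): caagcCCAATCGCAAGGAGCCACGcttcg
Calr (chr8:84847070-84847098, + strand): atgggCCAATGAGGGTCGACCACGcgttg
Pdia6 (chr12:17266486-17266514, + strand): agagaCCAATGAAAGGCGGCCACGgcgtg
Creld2 (chr15:88819515-88819543, - strand): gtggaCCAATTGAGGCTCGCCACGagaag
Dnajc3 (chr14:118937822-118937850, + strand): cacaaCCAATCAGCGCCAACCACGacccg
Canx (chr11:50325795-50325823, - strand): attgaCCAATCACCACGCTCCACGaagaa

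This element was in 36.8% of the 19 windows of the ER folding genes and in 0.113% of all 32851 windows. In 5 of the 8 matches it lay on the strand of the gene. The match at *Hspa5* lay 65 to 47 bases before the RefSeq start.

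The MEF2 site, which MEF2 factors bind, was in 10.9% of the 46 windows of sarcomere genes and 1.69% of all windows, and the CArG box, the site of SRF, in 17.4% and 1.47%. Matches of 8 of these genes are shown so that the letters can be compared, and none of the genes with a MEF2 site had a CArG box in its window:
Ttn, MEF2 site (chr2:76982699-76982718, - strand): aaaggCTAAATTTAGcactg
Myoz2, MEF2 site (chr3:123035006-123035025, - strand): tggtgCTATATATAGccagt
Mybpc3, MEF2 site (chr2:91118049-91118068, + strand): tttgtCTATATTTAGcaggt
Acta1, CArG box (chr8:123894834-123894853, - strand): gacacCCAAATATGGcttgg
Actc1, CArG box (chr2:114052908-114052927, - strand): ggcgaCCAAATAAGGcaagg
Ldb3, CArG box (chr14:34588702-34588721, - strand): acagtCCATTTATGGgcgca
Myl3, CArG box (chr9:110763588-110763607, + strand): aatgcCCTTTTATGGccctg
Myl7, CArG box (chr11:5898829-5898848, - strand): cctctCCTTATTTGGgcctc

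The windows of *Ttn* and *Myl7* lie wholly outside the gene bodies of GENCODE M21 and are shown in full, with the MEF2 site and the CArG box in capitals:
Ttn (chr2:76982548-76982797, - strand): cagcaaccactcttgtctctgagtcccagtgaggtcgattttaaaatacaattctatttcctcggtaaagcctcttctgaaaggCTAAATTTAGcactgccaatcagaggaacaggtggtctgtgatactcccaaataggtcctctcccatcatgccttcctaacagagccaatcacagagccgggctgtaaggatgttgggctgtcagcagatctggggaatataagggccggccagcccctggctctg
Myl7 (chr11:5898783-5899032, - strand): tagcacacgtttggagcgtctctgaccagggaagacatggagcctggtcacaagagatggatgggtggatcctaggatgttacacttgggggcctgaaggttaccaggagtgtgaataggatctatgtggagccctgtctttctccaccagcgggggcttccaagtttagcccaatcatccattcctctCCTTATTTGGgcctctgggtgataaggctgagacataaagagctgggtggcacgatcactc

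A match of letters is a description of the window and not evidence that a factor was bound in these cells.

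The first comparison set the cardiomyocytes beside the other heart MC cells of the same embryo. It describes what the rule selected, since sarcomere genes chose the cells, and no test was made. A gene was counted when its difference had the same sign in all 6 embryos and averaged at least 1 on the log2 scale. Of 13549 genes, 200 (1.48%) were higher and 505 (3.73%) lower in cardiomyocytes, and with the 124 high-scoring cells these counts were 277 (2.09%) and 984 (7.42%) of 13254 genes.

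Sarcomere genes made up most of the largest differences. *Myl3*, the ventricular essential light chain, was 8.22, 7.28, 6.91, 7.32, 8.06 and 9.02 in the cardiomyocytes of the 6 embryos and 2.06, 2.83, 2.61, 2.30, 3.36 and 2.56 in the other cells, a mean difference of 5.18 ± 0.92 (SD, n = 6). *Tnni3*, the adult cardiac troponin I, differed by 4.85 ± 0.62, *Csrp3*, a muscle LIM protein of the Z disc, by 4.76 ± 0.89, and *Myl1*, another essential light chain, by 4.69 ± 0.81. The groups did not overlap for any of these genes. Of the thick filament list 11 of 12 measured members passed the fold, among them *Myl2*, *Myh6*, *Ttn*, *Myl7* and *Mybpc3*, and of the thin filament and Z-disc list 18 of 26, among them *Des*, *Ankrd1* and *Tpm1*. The 4 rule genes are members of these lists and were not counted as passing.

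Genes of energy supply were also higher. *Chchd10*, which encodes a protein of the mitochondrial intermembrane space, was 6.73, 5.74, 4.63, 5.40, 5.46 and 6.62 in cardiomyocytes and 0.86, 0.69, 0.51, 0.98, 1.10 and 0.93 in the other cells. The muscle forms of cytochrome oxidase subunits, *Cox6a2* and *Cox7a1*, differed by 3.85 ± 0.84 and 3.51 ± 0.70, and 11 of 26 mitochondrial energy genes passed the fold. Among glycolysis genes 9 of 20 did, led by the muscle enzymes *Pgam2* (3.92 ± 0.98) and *Eno3* (3.12 ± 0.84). The fatty acid binding protein *Fabp3* differed by 3.80 ± 0.91, and 2 of 20 genes of fatty acid oxidation passed, beside 1.48% of all genes. Of these 20 genes 19 had a positive mean difference, beside 27.4% of all genes, and the list median was 0.47.

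Calcium handling and cardiac factor genes differed in part. Among 26 genes of calcium handling and excitation 7 passed the fold, led by *Pln*, which encodes phospholamban (3.29 ± 1.09), and *Slc8a1*, the sodium-calcium exchanger (2.54 ± 1.33). Of 34 cardiac factor genes 6 were higher, with *Nkx2-5* at 3.12 ± 0.90 and *Hopx* at 1.81 ± 0.65, and 2 were lower, *Gata4* at -1.15 ± 0.45 and *Meis2* at -1.51 ± 0.88. Beside these counts, 1.48% of all genes were higher and 3.73% lower. *Tbx5* (0.94), *Gata6* (-0.86) and *Hand2* (-0.80) did not pass. The mean difference was positive for 19 of the 34 genes and negative for 15, beside 27.4% of all genes with a positive one.

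The genes furthest below the other cells included *Id3*, *Hapln1* and *Col3a1*. *Id3*, an inhibitor of helix-loop-helix factors, was 2.46, 4.60, 5.60, 5.07, 4.36 and 3.05 in cardiomyocytes and 7.0, 7.47, 7.40, 7.78, 7.47 and 7.48 in the other cells, without overlap. *Hapln1*, which links hyaluronan in the cardiac jelly, differed by -2.99 ± 1.10, *Col3a1* by -2.74 ± 0.97, *Sox9*, a factor of cushion mesenchyme, by -2.68 ± 1.09 and *Fn1*, fibronectin, by -2.67 ± 0.87. Of 8 markers of cushion mesenchyme, the cells that form the valves, 6 were lower and 0 higher. Among ER folding genes 10 of 20 were lower and 0 higher, with a list median of -0.97 against -0.14 for all genes. Among 20 genes of the G1/S step 5 were lower, 4 of them MCM helicase subunits, and 0 of 20 G2/M genes passed in either direction.

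Change with stage was tested as a slope per embryonic day over the 6 embryo means with limma, in which 12776 genes were tested. Calls needed an adjusted p under 0.05 together with a slope of at least 0.5, up or down. With these limits 45 genes (0.352%) rose and 1525 genes (11.9%) fell, and the median slope of all genes was -0.16. With cells thinned to 100000 UMIs, which kept 116 of the 158 cells, 14 genes (0.108%) rose and 196 (1.51%) fell, and with edgeR on UMIs summed per embryo 3 rose (0.0235%) and 1 fell (0.00783%), where the median slope was -0.03. DESeq2 called 241 up (2.04%) and 118 down (1%). The excess of falling genes thus depended on the method. Summing the UMIs also weights cells by depth and changes the model, and thinning leaves out cells, so these effects cannot be told apart. Gene lists are set against the median of all genes. The 124 high-scoring cells gave 56 up (0.463%) and 1962 down (16.2%), among them 44 of the 45 rising and 1475 of the 1525 falling genes, and after thinning 34 up (0.279%) and 317 down (2.6%). In edgeR these cells gave 84 up (0.695%) and 24 down (0.199%). Without E9.5 embryo 2 the total was 226 genes, and without E11.5 embryo 2 it was 462.

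All 45 rising and all 1525 falling genes kept their sign in the thinned cells, where 14 and 192 of them were called. In edgeR 45 of 45 and 1463 of 1525 kept their sign. Because depth and sequencer differed between stages, the step from E10.5 to E11.5, which lies within 1 sequencer label, is given beside the slopes. This step alone called 22 genes, 5 up (0.0391%) and 17 down (0.133%), and between 0 and 14 genes when 1 embryo was left out. In high-scoring cells it called 6 up (0.0497%) and 29 down (0.24%), and in thinned cells 2 up (0.0155%) and 7 down (0.0541%). From E9.5 to E10.5 the test called 54 genes (0.423%), 32 up (0.25%) and 22 down (0.172%).

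**Figure D3:**
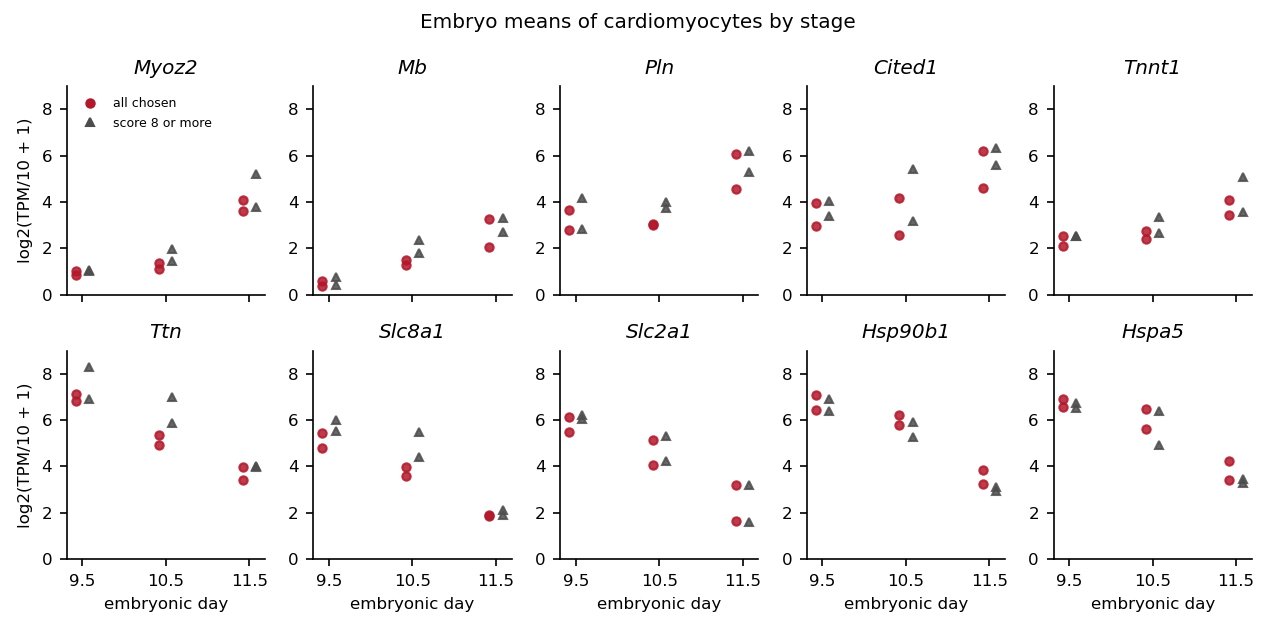
Embryo means (log2(TPM/10 + 1)) of 10 genes against embryonic day, with all chosen cells as circles and cells with a score of at least 8 as triangles, 2 embryos a stage. *Myoz2*, *Mb*, *Pln*, *Cited1* and *Tnnt1* are highest at E11.5, and *Ttn*, *Slc8a1*, *Slc2a1*, *Hsp90b1* and *Hspa5* are lowest there, in both sets of cells.

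Of the 45 rising genes *Myoz2* had the largest slope. It encodes calsarcin-1, a Z-disc protein that binds calcineurin. Its level was 0.99 and 0.83 at E9.5, 1.10 and 1.35 at E10.5, and 4.08 and 3.62 at E11.5. Both E11.5 embryos lay far above the other 4, which lay close together. The slope was 1.47 ± 0.23 per day (SE, limma adjusted p = 0.00225), the step from E10.5 to E11.5 was 2.62 (limma adjusted p = 0.0104), and the thinned slope was 1.12 (adjusted p = 0.0195). In edgeR the slope was 1.79 with an adjusted p of 0.115. The step from E10.5 to E11.5 was not called in thinned cells (2.15, limma adjusted p = 0.0627) or in ventricular-like cells (2.19, limma adjusted p = 0.333). It was called in edgeR on all chosen cells (3.32, adjusted p = 0.00979). The embryo means of the other MC cells reached at most 0.36 for this gene.

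*Mb*, which encodes the oxygen carrier myoglobin, was 0.38 and 0.58 at E9.5, 1.51 and 1.3 at E10.5, and 2.05 and 3.26 at E11.5. The stages did not overlap, and each lay above the one before. The slope was 1.09 ± 0.19 (limma adjusted p = 0.00369), and *Mb* was also called in edgeR (slope 2.04, adjusted p = 0.0161). *Pln*, the inhibitor of the calcium pump, is a gene that the study picked from these cells as high in later cardiomyocytes, so its direction is not independent evidence. It was 2.80, 3.64, 3.04, 2.98, 4.57 and 6.08 in the order of the embryos, level over the first 4 and higher in both E11.5 embryos. Its slope was 1.05 ± 0.29 (limma adjusted p = 0.0216), and 1.17 in thinned cells, where the adjusted p was 0.061. The step of *Pln* from E10.5 to E11.5 was 2.32 (limma adjusted p = 0.0852), and 0.10 in ventricular-like cells (adjusted p = 0.962), which *Pln* helped to choose.

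*Tnnt1*, the slow skeletal troponin T, was 2.54, 2.10, 2.41, 2.74, 4.09 and 3.45, again highest in both E11.5 embryos, with a slope of 0.73 ± 0.21 (limma adjusted p = 0.0264) and an edgeR slope of 1.27 (adjusted p = 0.0279). *Cited1*, a transcriptional coregulator of trabecular muscle, was 3.97, 2.98, 4.18, 2.58, 4.62 and 6.21 with a slope of 0.97 ± 0.31 (limma adjusted p = 0.0367); its stages E9.5 and E10.5 overlapped. *Myl2*, the ventricular regulatory light chain, was 7.64, 7.33, 6.73, 5.65, 8.67 and 10.07. Its slope of 0.94 did not pass (limma adjusted p = 0.0623), while its step from E10.5 to E11.5 of 3.18 did (adjusted p = 0.00463). In ventricular-like cells, which *Myl2* helped to choose, this step was 0.49 (limma adjusted p = 0.487). The ventricular-like cells with a rule score of at least 8 had a level of 10.58 and 10.27 at E10.5 and 10.73 in E11.5 embryo 1. Single cells of this class ran lower at E9.5, from 7.83 to 10.09 in embryo 1 and 5.56 to 9.74 in embryo 2. In E11.5 embryo 2 they ran from 10.08 to 11.54. The share of atrial-like cells, given with the chambers below, also differed between embryos, and its part in the step of *Myl2* was not tested. In high-scoring cells the slope of *Myl2* was 1.03 (limma adjusted p = 0.00383).

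The sarcomere lists moved both ways. *Ttn* was 6.81 and 7.12 at E9.5, 4.93 and 5.36 at E10.5, and 3.41 and 3.96 at E11.5, so that the stages did not overlap. The slope was -1.64 ± 0.18 (limma adjusted p = 0.000297) and -1.47 in thinned cells (adjusted p = 0.00314), and in edgeR it was -0.88 (adjusted p = 0.182). Of all genes 0.352% rose and 11.9% fell. Of 11 thick filament genes tested 0 rose and 4 fell, *Ttn*, *Myh6*, *Myom1* and the methyltransferase *Smyd1*, and the list median was -0.49. Of 23 thin filament and Z-disc genes 2 rose, *Myoz2* and *Tnnt1*, and 5 fell, *Flnc*, *Xirp1*, *Acta2*, *Actn2* and *Ldb3*, with a list median of -0.29. In edgeR that median was 0.10, so the direction of the second list turned with the method. Levels of *Myl7* were 10.33, 9.53, 8.94, 10.21, 9.78 and 9.87 and its slope was -0.05 (limma adjusted p = 0.804), but it was positive in edgeR (0.17).

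The sarcomere lists also differed between the steps. From E9.5 to E10.5, where the sequencer label changes, the list medians were -1.29 for the thick filament and -0.77 for the thin filament and Z disc, with 3 and 2 genes down. From E10.5 to E11.5 they were 0.25 and 0.56, against -0.19 for all genes, with 1 gene up in each, *Myl2* and *Myoz2*. Each E10.5 embryo held 8 low-scoring cells, against 7 and 1 in the E11.5 embryos. In high-scoring cells the medians of this step were -0.16 and -0.01 against -0.16 for all genes, and in all ventricular-like cells they were -0.29 and -0.05 against -0.13, so both medians lay below 0 there. Without E10.5 embryo 1 the medians were -0.10 and 0.11. *Ttn* was lower at both steps (-1.82, limma adjusted p = 0.0347, and -1.46, adjusted p = 0.120).

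Of the genes of calcium handling and excitation, *Pln* was alone in rising, and the genes that fell included a calcium exchanger and the calcium pump. *Slc8a1* was 5.43 and 4.77 at E9.5, 3.58 and 3.99 at E10.5, and 1.84 and 1.90 at E11.5, without overlap of stages (slope -1.62 ± 0.20, limma adjusted p = 0.000683; thinned -1.19, adjusted p = 0.0116). *Atp2a2*, the SERCA2 pump that phospholamban restrains, was 5.45, 5.11, 3.57, 4.70, 3.13 and 3.33, highest at E9.5 (slope -1.02 ± 0.21, limma adjusted p = 0.00693). In all, 9 of 26 genes of the list fell and 1 rose, beside 11.9% and 0.352% of all genes. In thinned cells 4 fell and 0 rose, beside 1.51% and 0.108% of all genes. The others that fell were *Casq1*, *Hrc*, *Ryr2*, *Gjc1*, *Jph2*, *Kcnj5* and *Cacna2d2*. The list median was -0.33 in the embryo means and also -0.33 in edgeR, where 0 genes of the list were called.

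Cardiac factor genes fell or did not pass. Among 34 genes 10 fell and 0 rose, beside 11.9% of all genes that fell. In thinned cells 1 fell, *Myocd*, the coactivator of SRF, beside 1.51% of all genes. *Nkx2-5* was 5.10, 4.5, 2.39, 3.54, 3.58 and 2.54, with both E9.5 embryos above the other 4 (slope -0.87 ± 0.26, limma adjusted p = 0.0318). *Mef2c* had a slope of -1.04 ± 0.20 (limma adjusted p = 0.00582). *Gata4*, *Tbx5* and *Hand2* did not pass, with slopes of -0.44, -0.42 and -0.21. The list median was -0.26 against -0.16 for all genes. In edgeR 0 of the 34 were called, 16 slopes were positive and 18 negative, and the list median was -0.09 against -0.03 for all genes. The step of *Nkx2-5* from E10.5 to E11.5 was 0.09 over all chosen cells. These held 8 low-scoring cells in each E10.5 embryo and 7 and 1 in the E11.5 embryos. The median of *Nkx2-5* was 1.36 in low-scoring and 4.72 in high-scoring cells. The sign of this step therefore need not hold in high-scoring cells, whose embryo means ran from 2.64 to 5.18 over all stages.

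Most of the ER folding genes fell. *Hspa5*, the chaperone BiP, was 6.55 and 6.90 at E9.5, 5.63 and 6.5 at E10.5, and 4.24 and 3.4 at E11.5. *Hsp90b1*, the chaperone GRP94, was 6.45, 7.07, 5.80, 6.22, 3.84 and 3.26. In both genes the E11.5 embryos lay well below the other 4. The slopes were -1.45 ± 0.22 (limma adjusted p = 0.00177) and -1.60 ± 0.22 (limma adjusted p = 0.000943), and the steps from E10.5 to E11.5 were -2.24 (adjusted p = 0.0252) and -2.46 (adjusted p = 0.0104). In the other MC cells *Hspa5* was 7.56, 7.55, 6.58, 6.5, 6.06 and 6.31, again highest in both E9.5 embryos. Whether the slopes of both cell sets differ was not tested.

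Of the 20 ER folding genes 15 fell and 0 rose, beside 11.9% of all genes, and all 20 slopes were negative, beside 84.2% of the slopes of all genes. The list median was -0.97 in the embryo means, -0.89 in thinned cells, where 10 fell, and -0.66 in edgeR, where 18 slopes were negative, beside 52.6% of all genes, and 0 were called. In high-scoring cells 16 fell. The step from E10.5 to E11.5, within 1 sequencer label, called 6 of the 20 down, beside 0.133% of all genes, with a list median of -1.72 against -0.19. In all ventricular-like cells this step called 0 of the 20, as it did of all genes (limma, 1025 genes at an unadjusted p under 0.05), and 19 of the 20 were negative with a list median of -1.39. With 1 embryo left out the step called 0 to 4 of the 20, 0 without any one of E9.5 embryo 1, E9.5 embryo 2, either E10.5 embryo or E11.5 embryo 2, and the list median was -1.98 to -1.40. In edgeR it called 1. These 6 were *Hspa5*, *Hsp90b1*, *Calr*, *Herpud1*, *Ddit3* and *Atf4*, of which *Atf4* and *Ddit3* encode factors of the integrated stress response. *Sdf2l1*, *Creld2* and *Erp44* are in the list because the study picked them from these samples, so their direction is not independent evidence. The 7 genes with an ER stress response element, shown above, all fell: the slopes of *Pdia6*, *Creld2*, *Calr*, *Canx* and *Dnajc3* were -1.45, -1.36, -1.22, -1.07 and -0.99.

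Depth and the levels of handling genes also differed between these stages. E11.5 cardiomyocytes had median depths of 121251 and 109899 UMIs, and those of E10.5 embryo 1 had 93592. Of 7 immediate early and stress genes tested 5 fell and 0 rose, beside 11.9% of all genes that fell. *Jun* was 3.83, 4.03, 1.27, 3.05, 1.22 and 0.68, and *Fos* 2.82, 5.77, 2.13, 4.84, 0.87 and 0.74, which differed between embryos of 1 stage. Their part in the fall of the ER folding genes was not tested.

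Metabolic genes were mixed. *Slc2a1*, the glucose transporter GLUT1, was 6.13, 5.49, 4.08, 5.13, 3.22 and 1.66, lowest at E11.5 (slope -1.68 ± 0.25, limma adjusted p = 0.00177; thinned -1.54, adjusted p = 0.00354). Of 20 glycolysis genes 7 fell and 0 rose, and 4 fell in thinned cells, beside 11.9% and 1.51% of all genes that fell. Besides *Slc2a1*, the 7 were the hexokinases *Hk1* and *Hk2*, *Pfkp*, *Pkm*, the glucose transporter *Slc2a3* and the lactate transporter *Slc16a3*. In edgeR 0 of the 20 were called, with a list median of -0.04 against -0.03 for all genes. In high-scoring cells edgeR called 2 up and 1 down, with a list median of 0.03, so the fall of this list depended on the method. Among 26 mitochondrial energy genes *Mb* rose and 3 fell, *Ogdh* and *Uqcrc1* among them, a share near the 11.9% of all genes that fell. Only *Hadhb* of 19 fatty acid oxidation genes passed, and it fell (slope -0.83 ± 0.21, limma adjusted p = 0.0152). The list medians of these last 2 groups were -0.07 and -0.14, but 0.18 and 0.18 in edgeR.

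Some cell cycle genes fell in the embryo means, and 0 were called after thinning. Among 20 G1/S genes 8 fell, for example *Mcm6* (slope -0.89 ± 0.20, limma adjusted p = 0.0105) and *Rrm1*. Among 20 G2/M genes 4 fell, *Top2a*, *Cenpf*, *Cenpe* and *Tpx2*, while 11.9% of all genes fell. In thinned cells 0 of either list passed in limma, and edgeR also called 0. The mean level of the G1/S list was 2.57 and 2.84 at E9.5 and 2.05 and 1.32 at E11.5, and in thinned cells 2.64, 2.79, 2.13 and 1.61. The G2/M list median turned from -0.39 to 0.09 in edgeR.

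**Figure D4:**
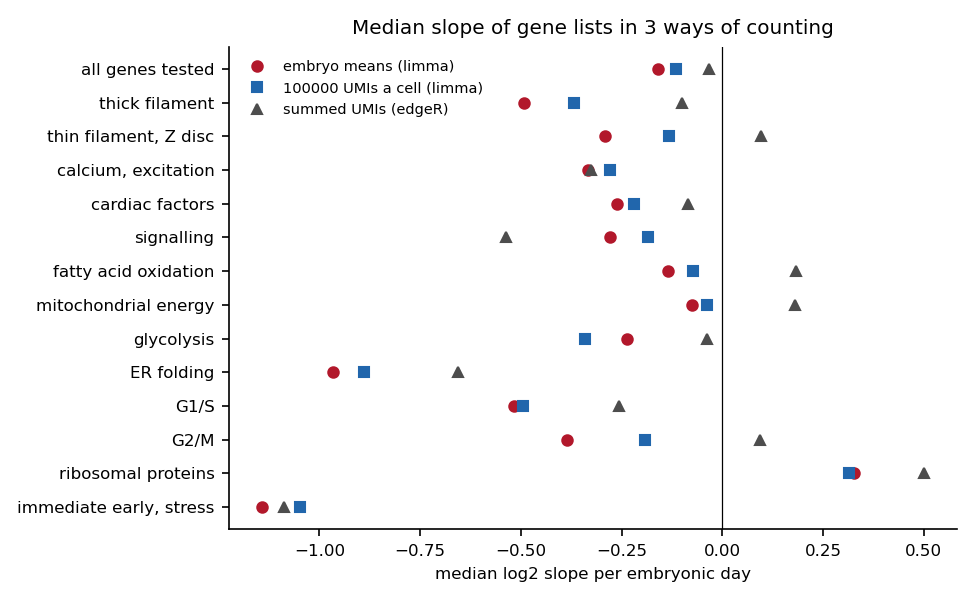
Median log2 slope per embryonic day of 13 gene lists and of all genes tested, from embryo means, from cells thinned to 100000 UMIs and from summed UMIs in edgeR. ER folding and immediate early genes lie lowest in each of the 3 sets of slopes, ribosomal protein genes lie above 0, and 4 lists cross 0 in edgeR.

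Genes of signals and receptors fell in part. Of 28 tested 6 fell and 0 rose, and 1 fell in thinned cells, beside 11.9% and 1.51% of all genes that fell. They were *Vcan*, the proteoglycan versican of the cardiac jelly (3.74, 5.51, 3.28, 2.92, 2.27 and 1.86; slope -1.28 ± 0.24, limma adjusted p = 0.00493), the receptors *Erbb2* and *Igf1r*, and the ligands *Tgfb2*, *Wnt5a* and *Jag1*. *Bmp7* did not pass in all chosen cells (slope -0.60, limma adjusted p = 0.0568). In edgeR 0 of the 28 were called and the list median was -0.54.

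Among ribosomal protein genes 14 of 77 rose and 0 fell, beside 0.352% and 11.9% of all genes, with a list median of 0.33. *Rps20*, which the study also picked from these cells, was 6.18, 5.87, 7.64, 7.44, 7.55 and 7.66. Both E9.5 embryos lay below the other 4. The list median from E9.5 to E10.5, where the sequencer label also changes, was 0.72 with 12 genes up, and from E10.5 to E11.5 it was -0.06 with 0 genes called. Stage and sequencer cannot be told apart for this step.

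Some transcripts of other cell types moved with stage. *Pf4*, a macrophage and platelet gene that the study picked from these samples, was 0, 0.10, 0, 0.01, 2.79 and 2.38 in cardiomyocytes and 0.00, 0.01, 0.04, 0.12, 1.89 and 2.44 in the other MC cells. *Hbb-y*, an embryonic globin, was 5.55, 4.86, 6.17, 6.07, 7.21 and 6.85 in cardiomyocytes (slope 0.91 ± 0.16, limma adjusted p = 0.00396; edgeR adjusted p = 0.0332). Summed over 6 macrophage markers the level was 0 to 10.4 TPM before E11.5 and 115 and 95.2 TPM in the E11.5 embryos. Of 5 tested macrophage markers 2 rose, beside 0.352% of all genes. Summed epicardial markers were 81.1, 252, 513, 833, 583 and 117 TPM in all chosen cells and 47.6 to 307 TPM in high-scoring cells. The 11 endothelial markers had 0 calls. Skeletal muscle factors such as *Myod1* and *Pax7* were at or near 0 TPM in all embryos. The part of these cells or of free RNA in the stage results was not tested.

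Chambers were assigned from a score, the mean of standardised levels of 6 ventricular markers (*Myl2*, *Myl3*, *Myh7*, *Irx4*, *Hey2*, *Pln*) minus that of 9 atrial markers (*Sln*, *Nr2f2*, *Nr2f1*, *Stard10*, *Vsnl1*, *Angpt1*, *Mybphl*, *Kcna5*, *Hey1*). Cells above 0.25 were called ventricular-like and cells below -0.25 atrial-like. Over all 158 cells this gave 85 ventricular-like, 57 atrial-like and 16 unclassed cells, but 27 of the 57 atrial-like cells had a score under 8. The genes lowest in ventricular-like against atrial-like cells then included *Tbx18*, *Dcn* and *Col1a2*, which were also high in the low-scoring cells. In that split 65 genes (0.516%) were higher and 221 (1.76%) lower over 5 embryos. The split was therefore repeated within the 124 high-scoring cells, a choice made after seeing the data, and gave 74 ventricular-like, 33 atrial-like and 17 unclassed cells. The score is a range and not a cell type: 17 of these cells lay within 0.25 of 0 and 32 within 0.5.

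In the high-scoring cells the markers that made the split are given as a description. *Myl2* ranged from 5.56 to 11.54 with a median of 10.27 in ventricular-like cells, and from 2.69 to 10.20 with a median of 4.35 in atrial-like cells, so single cells overlapped. *Myl7*, the atrial light chain, which was not used, had medians of 10.03 and 11.02 and thus was abundant in both. It was 10.27, 10.04, 9.75, 10.18 and 10.21 in ventricular-like cells of the 5 embryos with enough cells and 10.69, 10.21, 10.83, 11.28 and 11.04 in atrial-like cells. Ventricular-like minus atrial-like cells gave -0.72 ± 0.41 (SD, n = 5), with the same sign in each embryo.

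The balance of the myosin heavy chains differed between the classes in most embryos. *Myh7*, the slow ventricular chain, is part of the score, and *Myh6*, the faster atrial chain, is not. In ventricular-like cells *Myh7* made up 36.4%, 49.8%, 38.8%, 61.0%, 48.7% and 66.8% of the UMIs of both genes in the 6 embryos. In atrial-like cells it made up 2.21%, 51.0%, 3.72%, 1.10%, 8.31% and 1.09%, and the exception was E9.5 embryo 2, whose value came from 3 cells. These 3 cells had chamber scores of -0.36, -0.69 and -0.41 and *Myh7* levels of 7.54, 5.69 and 5.85. The median of *Myh7* was 1.79 in atrial-like and 5.80 in ventricular-like cells, so their *Myh7* levels go against the atrial-like name. The same 3 cells give the atrial-like values of E9.5 embryo 2 in the other chamber comparisons. The E11.5 embryo 2 value came from 2 cells. As the median over single cells, the share in E9.5 embryo 2 was 28.4% in atrial-like and 45% in ventricular-like cells, so the exception depended on pooling. In E11.5 embryo 1 the medians were 25.2% and 52.7%. By this measure the share was lower in the atrial-like cells of all 6 embryos. As *Myh7* helped to make the split, this direction is not a finding. The genes are near-identical neighbours, so reads could be split between them with error.

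Outside the markers 23 genes (0.195%) were higher and 35 (0.297%) lower in ventricular-like than atrial-like high-scoring cells, with the same sign in each of 5 embryos. *Mpped2*, a metallophosphoesterase gene, was 4.62, 5.20, 2.17, 3.57 and 3.24 in ventricular-like cells and 2.48, 4.46, 0.60, 0.44 and 0 in atrial-like cells, higher in each embryo, by 2.17 ± 1.05. *Lbh*, a transcriptional cofactor of limb bud and heart, was higher by 1.49 ± 1.11 and *Cited1* by 1.70 ± 1.58, the latter nearly level in E11.5 embryo 1, with 5.72 against 5.71. *Ung*, which removes uracil from DNA, differed by 1.32 ± 0.29. *Uhrf1* (1.08) was the only G1/S gene past the fold, while 19 of the 20 had a positive mean difference, beside 43.3% of all genes. In the split of all 158 cells 9 of the 20 were positive, beside 26.7% of all genes.

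*Cav1*, caveolin-1, showed the largest difference towards atrial-like cells. It was 0.23, 0.15, 0.27, 0.62 and 0.08 in ventricular-like cells and 3.82, 0.51, 2.70, 5.06 and 2.97 in atrial-like cells, a difference of -2.75 ± 1.53 that was small in E9.5 embryo 2 only. *Bex4* (-1.57 ± 0.67), *Nnat*, neuronatin, a membrane protein of the ER (-1.33 ± 0.58), and *Gng11*, a G protein subunit (-1.31 ± 0.94), were lower in the ventricular-like cells of every embryo. *Tnnt1* was among these genes (-1.25 ± 1.12), and *Myh6* differed by -1.0 ± 0.51. Median depths over all cells were 206162 UMIs in ventricular-like and 173943 UMIs in atrial-like cells, but within embryos the atrial-like cells were deeper in 4 of 6, for example with 392337 against 153843 UMIs in E10.5 embryo 2. The part of depth in these differences was not tested.

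**Figure D5:**
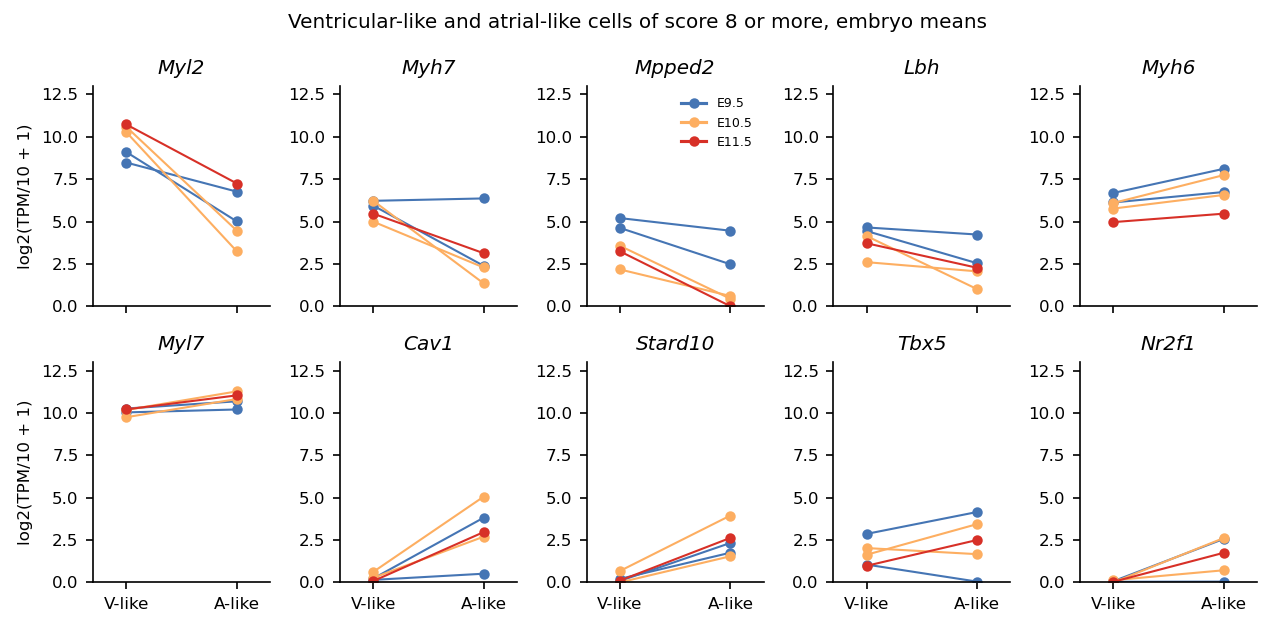
Embryo means (log2(TPM/10 + 1)) of 10 genes in ventricular-like (V-like) and atrial-like (A-like) cells with a score of at least 8, joined by a line for each of 5 embryos and coloured by stage. *Mpped2* is lower and *Cav1* higher in the atrial-like cells of each embryo. *Myl2*, *Myh7*, *Stard10* and *Nr2f1* are markers that made the split, so their direction is not a finding. Of these, *Myl2* is lower and *Stard10* higher in the atrial-like cells of each embryo, and *Myh7* is nearly level in E9.5 embryo 2.

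The share of atrial-like cells among high-scoring cells differed between embryos of a stage as well as between stages, and no test was made. It was 30.8% (95% Wilson interval 16.5 to 50.0%) and 12.5% (4.34 to 31.0%) at E9.5, 35.7% (16.3 to 61.2%) and 58.8% (36.0 to 78.4%) at E10.5, and 26.3% (11.8 to 48.8%) and 8.33% (2.32 to 25.8%) at E11.5. Intervals cover counting error only. The cells were picked from dissociated hearts, so these shares also depend on which cells were picked. Restricting the slope to ventricular-like cells gave 35 genes up and 806 down among all chosen cells, and 30 up and 506 down among those with a score of at least 8.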

How the data were processed

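Single cells were picked by mouth pipette from dissociated hearts, and cDNA was primed with oligo(dT) carrying cell barcodes and UMIs. The study's methods name a modified STRT protocol, and the labels a modified Smart-seq2 protocol. Per the labels' processing notes, the authors used CASAVA 1.8, TopHat2 2.0.12, HTSeq and mm10. The deposited values, which the authors call TPM, are CPM: the UMIs of a gene scaled to a cell total of 1000000 UMIs, without gene length. Whole UMIs were recovered for 100% of values within 0.05. Columns that repeated another column exactly were counted once.

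The members, gene lists and tests were chosen with earlier results of these data known. Major groups were taken from the study's cell annotation. Levels are log2(TPM/10 + 1), averaged per embryo over at least 3 cells where cell classes are compared. Genes entered a fit when at least 3 cells had a level of 1 or more. limma 3.58.1 (R 4.3.3) was fitted to the 6 embryo means with a trended prior, with Benjamini-Hochberg adjustment over all genes; steps were called at a log2 difference of at least 1. Alternatives were edgeR 4.0.16 (quasi-likelihood test) and DESeq2 1.42.0 on summed UMIs, cells thinned to 100000 UMIs, other thresholds and embryos left out. The limma and edgeR slope fits were also run on simulated embryo sums of UMIs with known slopes. That simulation held no single cells, so it could not show effects of cell depth on averaged log levels. Comparisons between cell classes had no test.

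Named genes were members of the lists that passed, at most 6 other members of a list by mean level, and the 10 with the largest change each way. In addition *Rps20* and genes that set the cell classes are given as values. Doublets were not called, and embryos of a stage were the only replicates. Positions of motifs are from RefSeq (GRCm38.p6), and gene bodies from GENCODE M21.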

Additional observations from a re-analysis of the deposited data

Results flagged for a closer look

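One of 40 sets of embryo values held an embryo far from the others, where chance gives about 1 in 20. The ventricular-like minus atrial-like difference of *Speg*, a kinase of striated muscle, was -2.94 in E10.5 embryo 1 and between -1.06 and -0.48 in the other 4 embryos.

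Muscle transcripts also stood out in cells that no comparison used. Of 31 heart cells without a major group, 26 had a rule score of at least 8, and they held 3303 to 69461 UMIs with a median of 15692. They came from E10.5 embryo 1 (5 cells), E11.5 embryo 1 (9 cells) and E11.5 embryo 2 (12 cells), and 23 of them had under 2000 genes.

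Outside the heart 5 cells had a score of at least 8.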

How the results depend on the processing

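Alternatives with a threshold of 8 and all alternatives of the split within high-scoring cells were chosen after seeing the data. The slope count of 1570 became 2800 with log2(TPM + 1), 0 without a gene filter, 210 after thinning, 4 in edgeR, 359 in DESeq2, 841 in ventricular-like cells, 536 in those of threshold 8, and 351 thinned and 108 in edgeR at threshold 8. Leaving out 1 embryo gave 226 to 1614. The limma count of 0 without a filter stood beside 4557 genes at an unadjusted p under 0.05.

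From E9.5 to E10.5 the count of 54 became 0 without a filter, 211 with genes expressed in 10% of cells, 6 thinned, 97 in edgeR, 96 and 33 at thresholds 4 and 5, 4 in ventricular-like cells at either threshold, 1 thinned at threshold 8, and 1 to 32 with 1 embryo left out. From E10.5 to E11.5 the count of 22 became 40 with log2(TPM + 1), 0 without a filter, 125 at 10% of cells, 9 thinned, 11 in edgeR, 57 at threshold 4, 35 at threshold 8, 0 in ventricular-like cells at either threshold, 5 thinned and 4 in edgeR at threshold 8, and 0 to 14 with 1 embryo left out. From E9.5 to E11.5 the count of 1546 became 2543 with log2(TPM + 1), 0 without a filter, 199 thinned, 165 in edgeR, 411 and 74 in ventricular-like cells, 190 thinned and 278 in edgeR at threshold 8, and 13 to 1013 with 1 embryo left out.

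The 705 genes past the fold against other MC cells became 2041 with log2(TPM + 1), 1261 at threshold 8 and 538 to 952 with 1 embryo left out. The 286 of the chamber split became 1210 with log2(TPM + 1), 177 standardised within stage, 58 at threshold 8 and 293 to 480 with 1 embryo left out. Within high-scoring cells the 58 became 332 with log2(TPM + 1), 575 thinned, 29 without a margin, 151 with a margin of 0.5, 30 standardised within stage, and 73 to 144 with 1 embryo left out.

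Same-numbered embryos share only a number: their deviations correlated at 0.0323, -0.249 and -0.112. With the replicate block the counts were 1259, 54, 27 and 1227. Slopes turned positive for *Ldb3* (0.0681), *Tbx20* (0.0652), *Mef2a* (0.108) and *Myl7* (0.255) in edgeR at threshold 8, for *Cenpf* (0.0828 in edgeR, 0.102 in DESeq2), for *Myl7* (0.168 in edgeR, 0.184 in DESeq2, 0.159 without E9.5 embryo 1, 0.0180 at threshold 5), for *Myh7* (0.0223 without E9.5 embryo 2) and for *Nppa* (0.0130 without E9.5 embryo 1). With 1 embryo left out at a time the lowest slopes of these genes were -0.182 for *Myl7*, -0.735 for *Myh7* and -0.689 for *Nppa*. The chamber difference turned for *Chchd10* (-0.277 at threshold 8) and *2310039H08Rik* (-0.0175 thinned). The causes were not tested.

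There were 2 embryos a stage, median depth was lower at E11.5 than at E9.5, and the sequencer label changed after E9.5. Stage, depth and sequencer therefore cannot be told apart in the slopes. Of 102 gene slopes refitted, 60 lost their call after thinning and 92 in edgeR.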
